A study of Capsella orientalis and Capsella grandiflora with 23 samples.

Results

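Parental bias was described in 1 pair of reciprocal crosses of Capsella grandiflora, an outcrossing relative of shepherd's purse, the grandiflora cross pair 2. The members were all genes with at least 20 allele-specific reads in exons in each of the 2 cross directions. They numbered 4948 of the 17269 genes with an exonic single-nucleotide polymorphism (SNP) in this pair, and the whole series held 12712 such genes of 21914, counting a gene once if it passed in any of its 4 tables. The study crossed accessions of C. grandiflora with each other, and likewise accessions of Capsella orientalis, in both directions, and read the RNA of each parental allele. Labels give 4 C. grandiflora accessions, A to D, with the cross AxB and its reverse BxA, and the cross CxD and its reverse DxC. All mothers were emasculated and pollinated by hand, and each library was made from endosperm dissected out of 300 to 500 seeds, pooled, at 6 days after pollination. There was no mutant and no treatment. The CxD and DxC libraries were each sequenced in 2 runs. The columns of the table name the parent of each allele and the direction, but not the accessions. It is thus not known here which of these crosses pair 2 holds, nor which accession was the mother in direction 1. Each direction is 1 library, and nothing says how many mother plants were pooled.

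Endosperm is the seed tissue that feeds the embryo. It arises from the fusion of a sperm cell with the central cell and carries 2 maternal genomes and 1 paternal genome, so a gene read equally from every genome copy gives a maternal share of 66.7%. An imprinted gene departs from that share according to which parent transmitted the allele, and the departure therefore keeps its side when the cross is reversed. A gene whose allele from 1 accession is the more active, or the more easily counted, departs toward the mother in one direction and toward the father in the other. In Arabidopsis endosperm, paternally expressed genes include many chromatin and transcription regulators, and Polycomb proteins silence many of the maternal alleles. The files pair no gene with a name, so each gene is given by scaffold, start and end in the coordinates of the deposited table, for which no genome build is stated in the labels, and neither lists of known imprinted genes nor markers of seed coat and embryo were used here. The labelled tissue was thus not checked against its markers.

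The table held 130074 SNPs assigned to a gene, of which 74284 (57.1%) lay in annotated exons. The genes kept carried 476373 allele reads in direction 1 and 644594 in direction 2, against 8640904 and 8501358 in the 11042 genes kept in the other grandiflora cross pair, pair 1. A gene of pair 2 had a median of 51 reads in direction 1 and 80 in direction 2, over a median of 5 exonic SNPs. One read counts once for every SNP it covers, so the 95% Wilson intervals and the limits drawn from counts of 0 (3 counts of the total) cover counting error only, and are too narrow where SNPs share reads.

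The maternal share was low in direction 1 alone. Summed over the genes kept, 52.6% of reads (95% Wilson interval 52.5% to 52.8%) were maternal in direction 1, and 67.4% (67.3% to 67.5%) in direction 2. The median over genes was 54.4% in direction 1, with 33.9% and 67.7% as quartiles, and 67.9% in direction 2, with 56.6% and 79.0% as quartiles. Direction 2 was thus centred near the dosage and direction 1 well below it. With 1 library a direction there was no test of this difference.

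**Figure D1:**
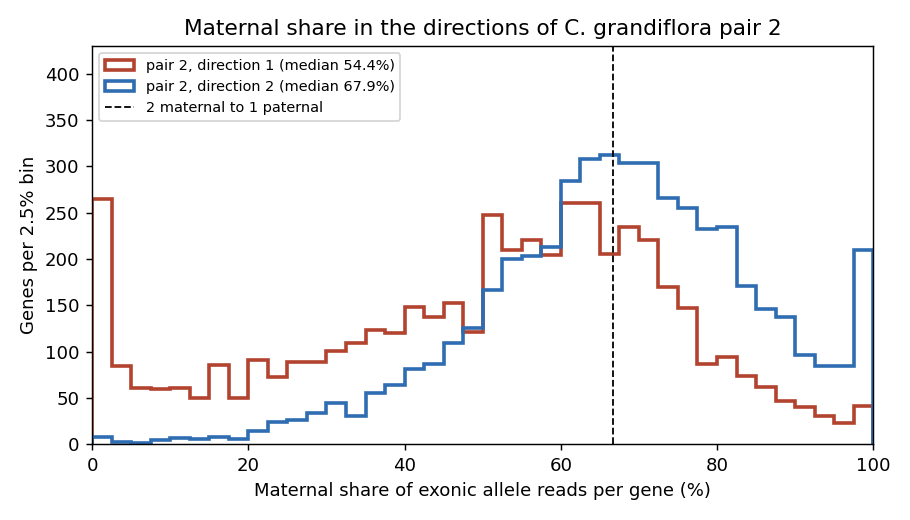
Maternal share of exonic allele reads per gene (horizontal axis, %) against the number of genes per bin of share, for direction 1 and direction 2 of C. grandiflora pair 2. The dashed line marks 66.7%, the share given by 2 maternal genomes to 1 paternal genome; direction 1 is wider, centred at 54.4%, with a peak of genes near 0%, and direction 2 is centred at 67.9%, with a peak near 100%.

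In direction 1, 3604 genes (72.8%) lay below the dosage, 2071 (41.9%) had more paternal than maternal reads, and 736 (14.9%) had a maternal share of 20% or less. In direction 2 these counts were 2307 (46.6%), 737 (14.9%) and 45 (0.909%). The opposite held at the maternal end, where 411 genes (8.31%) reached a share of 80% in direction 1 and 1163 (23.5%) did so in direction 2. Low maternal shares were thus the more frequent in direction 1, and high ones in direction 2.

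The same genes did not show this in the other crosses. Over the 3698 genes kept in both grandiflora pairs, the summed maternal share in pair 2 was 52.5% in direction 1 and 67.2% in direction 2. In pair 1 it was 65.0% and 65.7%. The medians over genes were 54.0% and 67.7% in pair 2, and 66.4% and 66.8% in pair 1. Direction 1 of pair 2 was the low value of the 4 in both measures.

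Genes without a single maternal read marked the extreme of direction 1. There were 208 of them (4.20%), against 25 genes (0.505%) without a paternal read in that direction. In the reverse cross, the same 208 genes had a median maternal share of 98.1%, and 171 of them lay more than 1 on the log2 scale above the dosage there. Direction 2 held 144 genes (2.91%) without a paternal read and 4 without a maternal read. In 87 genes the allele of only 1 accession, the father of direction 1 and mother of direction 2, was read in both crosses, while 1 gene had reads only of the other accession. The median share in direction 1 over the genes with at least 1 maternal read was 55.3%.

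The same asymmetry was present SNP by SNP. Of 50688 exonic SNPs listed in both directions, 8649 (17.1%) had reads only of the allele that the father of direction 1 and the mother of direction 2 contributed, and 5189 (10.2%) only of the other allele. At the 36363 SNPs (71.7%) where the alleles of both accessions were read, in the same direction or in different ones, the maternal share was 55.8% (55.6% to 55.9%) in direction 1 and 65.3% (65.2% to 65.4%) in direction 2. At the 18130 SNPs with reads of both parents in both directions it was 57.3% and 65.5%. Over all SNPs listed in both directions, the maternal share in direction 1 was 52.0%. Without the SNPs read from 1 accession only it was thus higher, and still below the dosage. A further 21713 exonic SNPs were listed in direction 2 only, with 99922 reads and a maternal share of 53.7% (53.4% to 54.0%), against 1883 listed in direction 1 only.

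The gap between the directions moved with the number of SNPs in a gene. The 428 genes with 1 exonic SNP gave summed maternal shares of 43.4% in direction 1 and 76.2% in direction 2. Genes with 2 to 3 SNPs, 1186 in number, gave 45.8% and 74.3%. The 1716 genes with 4 to 7 SNPs gave 51.3% and 69.3%. In the 1618 genes with 8 or more SNPs the shares were 58.1% (57.9% to 58.3%) and 62.5% (62.3% to 62.7%), so the directions lay closest in genes covered by many SNPs, and both were below the dosage there. The number of reads moved with it too: direction 1 rose from 44.8% in the least read quartile of genes (40 to 83 reads over both directions) to 54.6% in the most read quartile (244 to 6427 reads), while direction 2 stayed between 65.7% and 68.3%. The part of SNP number, read depth or the choice of SNPs in the low share was not tested.

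**Figure D2:**
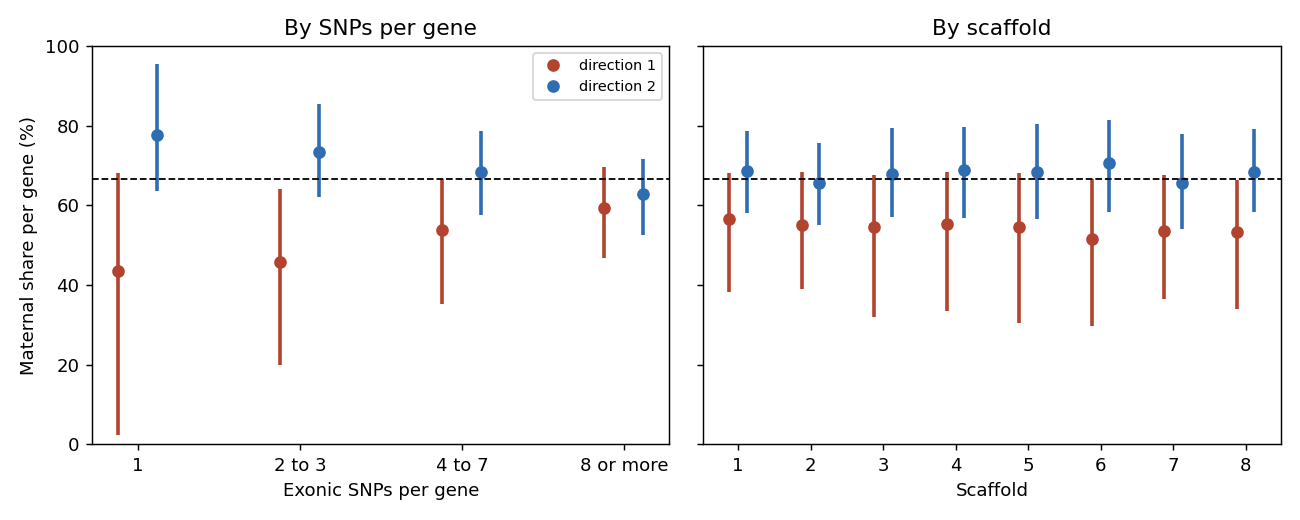
Maternal share per gene (%) in direction 1 and direction 2, by exonic SNPs per gene (left) and by scaffold (right), with points for the median over genes, bars for the quartiles and a dashed line at the dosage of 66.7%. The medians move from 43.4% and 77.6% in genes with 1 SNP to 59.3% and 62.7% in genes with 8 or more, while direction 1 lies below direction 2 on each of the 8 large scaffolds.

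The low share was spread over the genome. On the 8 large scaffolds, which hold all but 15 of the genes, the summed share in direction 1 ran from 49.7% on scaffold 6 to 54.8% on scaffold 1. In direction 2 it ran from 64.4% on scaffold 2 to 70.5% on scaffold 6. Of 115 windows of 1000000 bases with at least 10 genes, 110 had a lower median in direction 1 than in direction 2, and 114 had a direction 1 median below the dosage. The median of the window medians was 53.2% in direction 1 (33.3% to 68.6%) and 68.6% in direction 2 (57.2% to 79.5%).

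The next question was which genes kept 1 parental side in both directions. For each gene and direction the log2 ratio of maternal to paternal reads, with 0.5 added to each count and less 1 for the dosage, was taken as its deviation, so that 0 is the dosage and negative values are paternal. The deviation averaged over the directions had a median of -0.39 (quartiles -0.90 and 0.04) and was below 0 in 3594 genes (72.6%). Across genes, which share 2 libraries and are not independent, the deviations of the directions ran against each other (Pearson r = -0.51, Spearman rho = -0.40). In the genes kept in both pairs, the corresponding r in pair 1 was -0.09. In pair 2, 2143 genes (43.3%) lay below the dosage in direction 1 and above it in direction 2, the most frequent arrangement. Another 1502 genes (30.4%) lay below it in both directions, 454 (9.18%) above it in both, and 849 (17.2%) above it in direction 1 and below it in direction 2.

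Past a limit of 1 in size on the same side in both directions, which is a maternal share of about 50% or less or 80% or more, 228 genes were paternal and 57 maternal. These were 4.61% and 1.15% of the genes kept. A larger group, 843 genes (17.0%), was paternal past the limit in direction 1 and maternal past it in direction 2, and 131 (2.65%) did the reverse. Genes past the limit on opposite sides were thus more numerous than genes past it on the same side. With 1 library a direction this count carries no test. Because direction 1 as a whole was low, the balance of the lists rests on the dosage as reference: measured from each direction's own median, -0.75 and 0.06, the same limit was passed by 124 paternal genes (2.51%) and 104 maternal genes (2.10%), of which 122 and 54 were in the lists above. With only the most read SNP of each gene, which left 2326 genes, the lists held 49 paternal and 50 maternal genes.

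**Figure D3:**
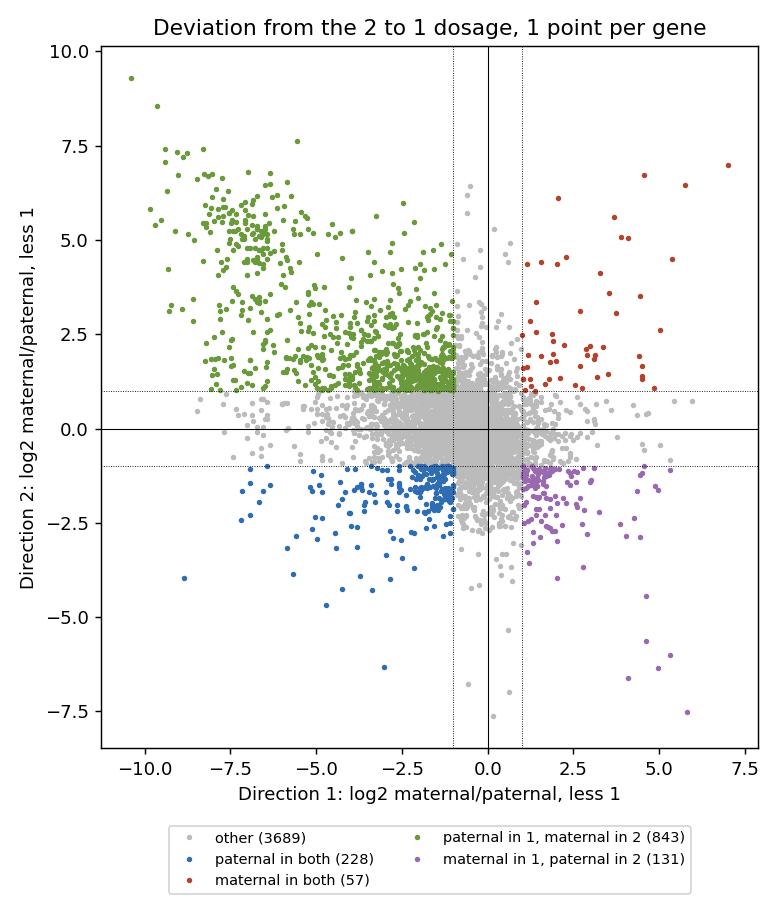
Deviation from the 2 to 1 dosage in direction 1 (horizontal) and direction 2 (vertical), log2 scale, 1 point per gene for 4948 genes, with dotted lines at the limit of 1 in size. The 228 genes paternal in both directions lie at the lower left and the 57 maternal in both at the upper right, while 843 lie at the upper left, paternal in direction 1 and maternal in direction 2, many of them near the edge set by genes without a maternal read in direction 1.

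No gene passed a test that sets the parental bias against the difference between the directions. The edgeR quasi-likelihood test with Benjamini-Hochberg adjustment called 0 of 4948 genes (0.0%), with a smallest adjusted p of 0.999. At an unadjusted p under 0.05 it gave 49 genes (0.99%), 19 maternal and 30 paternal, all of them within the size lists. Its 1 residual degree of freedom holds the difference between the directions, in which accession and library cannot be told apart. DESeq2, which also scaled the 4 columns by its own factors in place of the dosage, called 9 genes, 4 maternal and 5 paternal, and gave no adjusted p for 1823. The lists are therefore descriptions of these 2 libraries.

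Paternal genes were the larger list and mostly moderate in size. Their averaged deviation had a median of -1.74 (quartiles -2.57 and -1.43), against -0.39 over all genes, and their median maternal shares were 35.6% and 40.0% in directions 1 and 2. Of the 228, 41 were past 2 in size in both directions and 10 past 3. The intervals of both shares stayed below the dosage in 213 (93.4%), which the choice of genes on these same shares makes likely. The genes just inside and just outside the limit had deviations of -1.0 and -0.97 in their weaker direction. Their median length was 2813 bases, near the 2780.5 of all genes, and they held a median of 6 SNPs. The list leaned to thinly read genes, with 6.51% of genes whose shallower direction had 20 to 49 reads and 2.66% of genes with 50 or more reads in both. Scaffold 7 held 49 of its 774 genes in the list (6.33%), and the other large scaffolds 3.54% to 4.73%.

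Among the 12 paternal genes with the largest weaker deviation, the gene at 1907519 to 1908913 of scaffold 4 (plus strand) came first. It had 7 maternal and 98 paternal reads in direction 1 and 12 and 160 in direction 2, which are maternal shares of 6.67% (3.27% to 13.1%) and 6.98% (4.04% to 11.8%). The paternal allele led at each of its 8 SNPs in both directions, all of them in 1 annotated exon. Its averaged deviation was -4.70, with an edgeR adjusted p of 0.999. That was the smallest edgeR value of all genes, but a tied one. The genes most opposed between directions, named below, had it too, so it does not set this gene apart. DESeq2, on its own scaling, gave an adjusted p of 0.0130. The DESeq2 values given for genes below refer to that scaling and not to the deviation from the dosage.

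The best covered of the strongly paternal genes by SNPs lay at 11097355 to 11102864 of scaffold 7 (minus strand). It had 8 maternal and 216 paternal reads in direction 1 and 55 and 398 in direction 2, shares of 3.57% (1.82% to 6.89%) and 12.1% (9.45% to 15.5%). Its 28 SNPs fell in 9 exons. Paternal reads were in excess at 28 of 28 SNPs in direction 1 and 27 of 28 in direction 2, and the share per exon ran from 0% to 22.2% and from 0% to 32.0%. Paternal reads were thus in excess in each of the 9 exons. The deviation averaged -4.76. DESeq2, on its own scaling, gave an adjusted p of 0.00092.

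The most read of the 12 lay at 2870727 to 2872237 of scaffold 4 (minus strand), with 73 maternal and 517 paternal reads in direction 1 and 155 and 688 in direction 2. Its maternal shares were 12.4% (9.96% to 15.3%) and 18.4% (15.9% to 21.1%), and its averaged deviation was -3.48. DESeq2, on its own scaling, gave an adjusted p of 0.0145. Paternal reads led at 10 of the 10 SNPs read in direction 1 and at 11 of 11 in direction 2. They did so less strongly in the exon at 2871440 to 2871762, where a single SNP gave 23.7% and 39.3%, than in the exon at 2870727 to 2871293, where 9 SNPs gave 10.3% and 15.2%.

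No maternal read was seen in direction 1 for the gene at 8166727 to 8168509 of scaffold 8 (plus strand), 0 of 116, which allows a share of up to 2.59%. In direction 2 it had 9 maternal and 74 paternal reads, a share of 10.8% (5.81% to 19.3%). These reads came from 2 SNPs in 1 exon (DESeq2 adjusted p = 0.0130). Its averaged deviation of -6.42, the lowest of the list, depends on the 0.5 added to the count of 0.

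The remaining 8 of the 12 were read less deeply. The gene at 2939460 to 2942446 of scaffold 8 (minus strand) had 2 maternal and 23 paternal reads, then 5 and 52, in directions 1 and 2. The gene at 7913733 to 7917366 of scaffold 6 (plus strand) had 5 and 36, then 16 and 123. A short gene of 465 bases at 11024878 to 11025342 of scaffold 7 (plus strand) had 4 and 23, then 5 and 53. These 3 genes gave maternal shares between 8.00% and 14.8% in each direction. Direction 1 was the lower in 3 others: at 4253514 to 4255393 of scaffold 3 (minus strand) the shares were 2.27% and 17.4%, at 10598394 to 10601071 of scaffold 8 (plus strand) 7.69% and 17.6%, and at 3283770 to 3290676 of scaffold 7 (minus strand) 5.17% and 20.0%. The gene at 10308852 to 10311109 of scaffold 7 (plus strand) had the reverse order, 18.8% (6 of 32 reads) and 1.64% (1 of 61). At 12929735 to 12936585 of scaffold 4 (minus strand) the shares were 19.2% and 15.8%, with paternal reads in excess at 4 of 5 SNPs in each direction. In direction 2 they were in excess at 6 of 7 SNPs at 7913733, and at 5 of 6 at both 4253514 and 3283770. The rest of the 8 genes had a paternal excess at every SNP read. Single exons reached maternal shares in direction 2 of 77.8% (9 reads, gene at 12929735) and 85.7% (7 reads, gene at 3283770). All 12 genes rested on at least 2 SNPs, although neighbouring SNPs can share reads and need not be independent. Of the 12, 11 were among the 49 genes at an unadjusted edgeR p under 0.05, which rests on the same counts that ranked them. A paternal gene outside the 12, at 830598 to 831303 of scaffold 5 (plus strand), is named because DESeq2 called it (adjusted p = 0.0122), and was chosen after its values were seen. It had 12 maternal and 301 paternal reads in direction 1 and 88 and 316 in direction 2, shares of 3.83% and 21.8%.

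**Figure D4:**
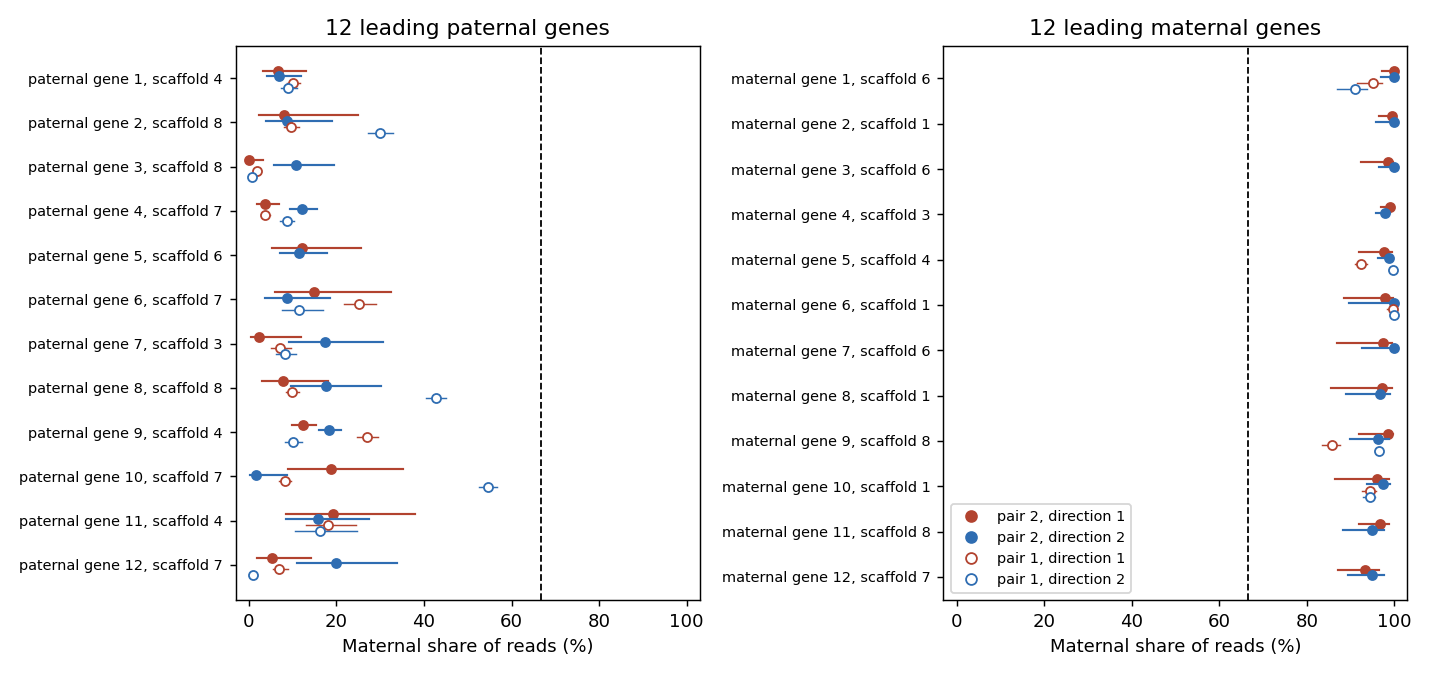
Maternal share of reads (%) with 95% Wilson intervals for the 12 leading paternal genes (left) and the 12 leading maternal genes (right), in the order of their weaker deviation, with filled points for pair 2, open points for pair 1 where the gene was kept there, and a dashed line at 66.7%. In pair 2 the paternal genes lie between 0% and 20.0% and the maternal genes between 93.2% and 100%; each open point lies on the same side of the dashed line as the filled points of its row.

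Maternal genes were fewer, and by their medians shorter and further from the dosage. The averaged deviation of the 57 had a median of 2.46 (quartiles 1.78 and 3.19), and their median maternal shares were 92.3% and 89.7%. In both directions 20 were past 2 in size and 11 past 3. Both intervals stayed above the dosage in 45 (78.9%), again in genes chosen on these same shares. The genes just inside and just outside the limit had weaker deviations of 1.01 and 0.98. Their median length was 1630 bases, and 17.5% were under 1 kb, against 3.95% of paternal genes and 5.27% of all genes. They held a median of 4 SNPs, and 8 (14.0%) rested on 1 SNP, compared with 7 paternal genes (3.07%) and 428 of all genes (8.65%).

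A single gene of the 57 gave no paternal read in either direction. It lay at 8912943 to 8916184 of scaffold 6 (minus strand), with 129 of 129 and 126 of 126 reads maternal, which allows maternal shares down to 97.7% and 97.6%. These reads fell on 16 SNPs in 5 exons, and no SNP had a paternal read. DESeq2 called it (adjusted p = 0.00413) and edgeR, which used the dosage, did not (adjusted p = 0.999). Its averaged deviation of 7.0 depends on the 0.5 added to the counts of 0.

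The deepest of the leading maternal genes lay at 13480689 to 13481412 of scaffold 3 (plus strand), with 288 maternal and 3 paternal reads in direction 1 and 335 and 7 in direction 2. Its shares were 99.0% (97.0% to 99.7%) and 98.0% (95.8% to 99.0%) over 6 SNPs in 1 exon, and its averaged deviation was 4.92. DESeq2, on its own scaling, gave an adjusted p of 0.00092. At 9766051 to 9767358 of scaffold 1 (minus strand) there were 161 maternal reads and 1 paternal read in direction 1, and 88 and 0 in direction 2, which allows down to 96.6% (DESeq2 adjusted p = 0.0122). The gene at 7192684 to 7196495 of scaffold 4 (plus strand) had 85 and 2, then 232 and 3, shares of 97.7% and 98.7% (DESeq2 adjusted p = 0.0222). These 3 genes were read almost wholly from the mother, whichever accession she was.

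The other leading maternal genes had maternal shares of at least 93.2% in each direction. The gene at 10054980 to 10057434 of scaffold 6 (minus strand) had 70 maternal reads and 1 paternal, then 105 and 0, with its 3 SNPs in 3 exons. Shares of 98.5% and 96.3% were found at 8945803 to 8947217 of scaffold 8 (minus strand), and of 96.0% and 97.5% at 5775294 to 5777017 of scaffold 1 (plus strand). At 5030185 to 5031298 of scaffold 8 (minus strand) they were 96.7% and 94.8%, and in the gene of 591 bases at 8891825 to 8892415 of scaffold 7 (minus strand) 93.2% and 94.9%. The last 3 genes rested on 1 SNP each, with no second SNP to compare. They lay at 4155070 to 4156370 of scaffold 1 (plus strand), with 44 maternal reads and 1 paternal, then 33 and 0, at 12497083 to 12498102 of scaffold 6 (plus strand), with 38 and 1, then 48 and 0, and at 8546456 to 8547503 of scaffold 1 (minus strand), with 34 and 1, then 60 and 2. All 12 were among the genes at an unadjusted edgeR p under 0.05, which rests on the same counts that ranked them.

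SNP number moved with the lists as well as with the shares. From genes with 1 SNP to genes with 8 or more, the paternal list took 1.64%, 4.38%, 4.78% and 5.38% of genes in the 4 classes of SNP number given above, and the maternal list 1.87%, 1.60%, 1.22% and 0.556%. The group paternal in direction 1 and maternal in direction 2 took 38.8%, 27.7%, 15.5% and 5.07%. The correlation between directions across genes went from -0.78 to -0.18 over the same classes. The averaged deviation moved little, with medians of -0.43, -0.45, -0.37 and -0.36, and these averages join directions that differ. The median deviation was -1.37, -1.23, -0.78 and -0.46 in direction 1 over the 4 classes, and 0.72, 0.43, 0.10 and -0.26 in direction 2, so only genes with 8 or more SNPs had a median on the paternal side in both directions. The part of SNP number in the lists was not tested.

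The 3 genes with the largest product of opposed deviations, a ranking that favours counts of 0, had reads of 1 accession only. Such genes were the smaller part of those that switched sides past the limit. They were 87 of the 843 paternal in direction 1 and maternal in direction 2, and 1 of the 131 with the reverse order. The gene at 13812871 to 13814308 of scaffold 4 (minus strand) had 0 maternal and 334 paternal reads in direction 1, and 629 and 0 in direction 2, at 1 SNP. At 17890448 to 17891789 of scaffold 1 (plus strand) there were 0 and 200, then 374 and 0, also at 1 SNP. The gene at 1622305 to 1624085 of scaffold 3 (plus strand) had 0 and 169, then 171 and 0, at 2 SNPs in 2 exons. All 3 were paternal in direction 1 and maternal in direction 2, and the second allele was not detected in either cross. Their averaged deviations, -0.54, -0.55 and -0.99, describe neither direction.

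The 4 most read genes differed in how far their directions lay apart. The gene at 8210379 to 8217976 of scaffold 7 (minus strand), with 172 SNPs in 16 exons, had 1936 maternal and 921 paternal reads in direction 1 and 2498 and 1072 in direction 2. Its shares of 67.8% (66.0% to 69.5%) and 70.0% (68.4% to 71.5%) were close to 66.7% as sums over the gene. Reads that cover several of its SNPs are counted several times, which raises its rank and makes these intervals too narrow. Its exons ran from 39.5% (38 counts) to 100% (7 counts) in direction 1 and from 38.1% (42) to 88.1% (84) in direction 2. The 7 counts of the exon at 100% were 1 at each of 7 neighbouring SNPs, and can come from the same read. The gene at 7192366 to 7192653 of scaffold 5 (plus strand), by contrast, had 958 and 1529, then 2429 and 593, shares of 38.5% and 80.4% over 3 SNPs. A gene with 1 SNP at 484784 to 485607 of scaffold 5 (plus strand) had 41.4% and 73.8%. The gene at 342195 to 342725 of scaffold 8 (plus strand), also with 1 SNP, ran the other way, with 69.8% and 60.3%. A share below the dosage in direction 1 was thus found in 2 of these 4 genes. Their averaged deviations, -0.32 for the gene with 3 SNPs and -0.51 for that with 1, join opposed directions.

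Pair 1 gave a measure of the same genes in crosses that did not enter the lists. Of the 3698 genes kept in both pairs, 169 were on the paternal list of pair 2 and 82 (2.22%) passed the same limit toward the father in pair 1. The lists shared 49 genes, 29.0% of the pair 2 list and 59.8% of the pair 1 list. No paternal gene of pair 2 was maternal in pair 1, against 2.76% of all genes kept in both pairs. In pair 1, 75 of the 169 (44.4%) lay below the dosage in both directions, against 15.3% of all genes kept in both pairs. Their median deviation there was -0.30, against -0.02 over all. Another 11 of the 169 (6.51%) lay above it in both directions of pair 1, where 14.8% of all genes did.

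Maternal genes of pair 2 also recurred in part. Of 41 on the pair 2 list, 23 passed the limit in pair 1, which are 56.1% of the pair 2 list and 22.5% of the 102 genes (2.76%) on the maternal list of pair 1. None was paternal there, against 2.22% of all genes kept in both pairs, a share too small for this absence among 41 genes to be informative. In pair 1, 27 of the 41 (65.9%) lay above the dosage in both directions, against 14.8% of all, and their median deviation was 1.80. The difference in recurrence between the paternal and the maternal list was not tested.

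**Figure D5:**
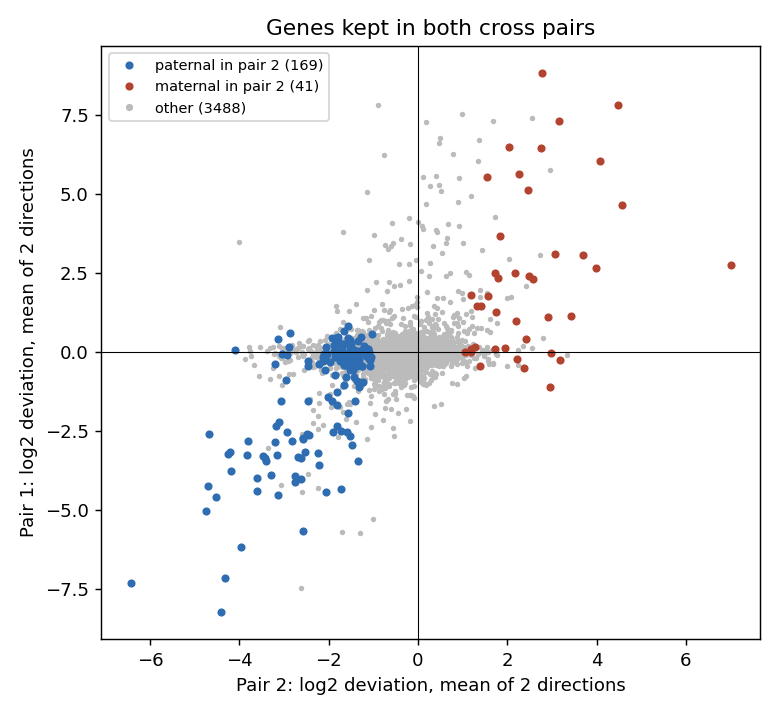
Averaged log2 deviation from the dosage in pair 2 (horizontal) and pair 1 (vertical), 1 point per gene for the 3698 genes kept in both. The 169 genes paternal in pair 2 fall into a cloud near 0 in pair 1, with a median of -0.30, and a tail that is paternal in both, and the 41 maternal genes lie mostly above 0, with a median of 1.80.

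Most of the leading genes that were kept in both pairs recurred. Of the 12 paternal genes 11 were kept in pair 1, and 10 of them passed the limit there. The gene at 11097355 of scaffold 7 had maternal shares of 3.71% and 8.66% in pair 1, and that at 1907519 of scaffold 4 had 10.1% and 8.92%, close to their values in pair 2. The exception was the gene at 10308852 of scaffold 7, with 8.18% and 54.6%. The gene at 10598394 of scaffold 8 was uneven as well, with 9.80% and 42.8%, and stayed within the limit of 50%. Of the 12 maternal genes 5 were kept in pair 1, and all 5 passed there. The gene without a paternal read in pair 2, at 8912943 of scaffold 6, had 11 paternal reads of 223 and 24 of 264 in pair 1, shares of 95.1% and 90.9%. The gene at 4155070 of scaffold 1 rested on 1 SNP in each pair and had shares of 99.7% of 328 reads and 100% of 455 reads in pair 1.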

How the data were processed

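The allele counts used here are read counts per SNP, given by the authors as whole numbers for the maternal and the paternal allele in each of 2 directions, per the file headers. The submitters' processing notes list Bowtie2, Trimmomatic and Bismark, with no versions and no roles. How RNA reads were aligned, how SNPs were called and filtered, on which genome build, and whether repeat runs were merged was not given in the sources used here. Beside these the table held 18 columns of per-sample values that were not used, among them the authors' own tests. No column names a sample, so the columns were tied only to the grandiflora endosperm group. Whether libraries come from separate plants is not stated, so spread between them may be technical.

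Counts were summed per gene over exonic SNPs, and genes with at least 20 reads in each direction were kept (python 3.11.15, pandas 2.3.3). No SNP was assigned to 2 genes. Intervals are 95% Wilson intervals (scipy 1.17.1). The count test was edgeR 4.0.16 (R 4.3.3) on the counts, with the library as a block, parent of origin and an offset for the 2 to 1 dosage. It left 1 residual degree of freedom, and an accession term would leave 0. DESeq2 1.42.0 and edgeR with TMM factors used their own scaling in place of the offset. Genes named were the 12 per side with the largest weaker deviation, the 4 most read and the 3 most opposed. The members, rules and lists were chosen with earlier results of these data known. Alternatives changed the SNPs, the minimum, the null, the added count, the limit, the test and the directions used.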

Additional observations from a re-analysis of the deposited data

Results flagged for a closer look

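Values of a gene or of all genes were set side by side in the 4 directions of the grandiflora pairs, and 6 of 21 such sets had 1 direction far from the other three. The rule marks about 1 in 20 sets of 4 like values by chance, a rate that does not carry over to these sets, since the genes were chosen on their values in pair 2 and the pairs are different crosses. Direction 1 of pair 2 stood apart in the summed maternal share of the genes kept in both pairs, at 52.5%, and in the median share over those genes, at 54.0%. The gene at 8166727 to 8168509 of scaffold 8 had its high share of 10.8% in direction 2 of pair 2, and the gene at 4155070 to 4156370 of scaffold 1 its low share of 97.8% in direction 1 of pair 2, where 1 of 45 reads was paternal. For 2 genes the direction apart was in pair 1. The gene at 2939460 to 2942446 of scaffold 8 had 30.0% in direction 2, and the gene at 8945803 to 8947217 of scaffold 8 had 85.8% in direction 1.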

How the results depend on the processing

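The low share of direction 1 was present under each choice of SNPs and minimum tried, and its size moved. The shares in directions 1 and 2 were 53.2% and 63.7% with all SNPs, 56.1% and 66.6% with only SNPs where the alleles of both accessions were read, and 48.3% and 74.1% with the most read SNP of each gene. They were 52.3% and 66.6% at a minimum of 10 reads, 53.7% and 68.3% at 50, and 52.0% and 65.3% at 1. Direction 2 was 67.9% with SNPs listed in both directions, a choice made after seeing the data, and 67.2% without the 10 most read genes.

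With the most read SNP, which left 2326 genes, the paternal list held 49 and the maternal 50, so the paternal excess was gone. The paternal list held 487 (6.79%) at a minimum of 10 reads, 65 (2.66%) at 50 and 1593 (11.5%) at 1. It held 124 (2.51%) at the direction medians and 41 past a limit of 2, both of 4948 genes. The maternal list held 96 (1.34%), 26 (1.06%), 311 (2.24%), 104 (2.10%) and 20 under these. With 1 direction alone, also of 4948 genes, the paternal list held 2158 in direction 1 and 780 in direction 2. The maternal list held 376 and 1119. The median deviation, -0.39 over both directions, was 0.065 without direction 1, the reverse of its sign, and -0.75 without direction 2. At the direction medians it was -0.05.

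The edgeR count of 0 became 9 with DESeq2. It was 0 in the fit without the replicate block, where the library is the block (102 genes at an unadjusted p under 0.05), with TMM factors (48), and under every other edgeR setting (12 to 85).

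Of 307 values of the 31 named genes under the alternatives, 265 moved by less than the spread between directions and 34 by more. Another 8 changed sign, in 6 genes near 0 or opposed between directions. The 265 are no measure of stability. Leaving out a direction cannot move an average by more than this spread, which is wide in opposed genes. Keeping only SNPs with 1 gene removed no SNP, and so left each value as it was. The gene at 7192366 of scaffold 5 came to 0.022 at the medians, 1.03 without direction 1 and -1.67 without direction 2. That at 342195 of scaffold 8 came to 0.25 at the medians, -0.40 without direction 1 and 0.21 without direction 2. With direction 1 and direction 2 left out in turn, the gene at 484784 of scaffold 5 came to 0.49 and -1.5, and the opposed genes to 9.30 and -10.39 (scaffold 4), 8.55 and -9.65 (scaffold 1), and 7.42 and -9.41 (scaffold 3). The cause of these changes was not tested, except that leaving out a direction removes 1 of the 2 opposed values. Under 50 reads in a direction were found in 163 of the 228 paternal genes and in 2503 of all 4948.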

Other observations

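The lowest median maternal share of a window in direction 1, 33.3%, was shared by scaffold 6 from 16000001 to 17000000 and scaffold 8 from 13000001 to 14000000. In direction 2 these windows had medians of 71.4% and 79.5%. The 5 windows in which direction 1 was above direction 2 lay on scaffolds 2, 4, 5 and 7, with 2 of them on scaffold 7.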
